A study of Mus musculus with 1536 samples.

Results

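Glycolysis splits glucose into pyruvate in a chain of enzyme steps in the cytosol, and in endothelial cells, which line blood and lymphatic vessels, it is known as the main source of ATP. Glucose enters through the transporter GLUT1, the first enzymes trap it and commit it to breakdown, and the later enzymes yield ATP, NADH and finally lactate. PFKFB3 stands beside the chain: it makes fructose-2,6-bisphosphate, the strongest activator of phosphofructokinase, and it is known for its part in vessel sprouting. Described here are 10 of the 23168 genes in the expression matrix. They were chosen by symbol and not by a rule on their values, though earlier results of these data were known. The 10 are Slc2a1 (GLUT1), the hexokinases Hk1 and Hk2, Pfkfb3, the phosphofructokinase gene Pfkl, and Aldoa, Gapdh, Pgk1, Pkm and Ldha.

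The cells were lymphatic endothelial cells (LECs) of the nasopharyngeal mucosa, sorted as CD31+ PDPN+ from c57bl/6 mice of both sexes, 30 animals aged 10 to 12 weeks and pooled, with no treatment or genetic change given for the group. Each cell was read in a well of its own with Smart-seq3, in which full-length cDNA is sequenced. The matrix holds about 840 cells, 54.8% of the wells listed. No label or column name gives the mouse or the plate, so all cells were treated as 1 sample of 1 group, no test was made, and each SD or interval below describes these cells only. Values are over all of these cells unless another number of cells is given.

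Each deposited value is ln(1 + x), where x is the reads of a gene per 10000 reads of its cell, and levels are given here as x unless said otherwise. Total reads per cell lay between 7433 and 3524358 (median 350746), and genes per cell between 2001 and 7236 (median 4186.5). All 10 LEC markers examined had reads, Mmrn1 in 100% of cells, Flt4 in 99.8% and Ccl21a, the lowest, in 79.2%. Among markers of other cell types, Ptprc and Cd3e (leukocytes), Hbb-bs and Hba-a1 (red cells) and Tnnt3 (skeletal muscle) had no read in any cell. Other genes of these lists did have reads: 3 of 5 immune genes, with 17 cells holding at least 2 of them and a summed level of up to 286.3 in a cell, 2 red cell genes and 3 muscle genes. Plvap, a marker of blood endothelium, had reads in 77.8% and was the only one of that list above 5.11%. Reads of at least 2 genes of any such list were present in 85 cells (10.1%), in which the summed level of the 10 glycolysis genes was 29.3 ± 9.96 (SD, n = 85 cells) against 29.96 ± 12.5 (SD) in the other cells.

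Transcripts of all 10 genes were found, but in very different shares of the cells. Most of the later enzymes were found in nearly all cells: Gapdh had reads in 98.2% of cells, Aldoa in 96.7%, Pkm in 94.3% and Ldha in 87.9%. Pgk1, also a later enzyme, was found in 59.7%, within the range of 32.8% to 61.05% of Slc2a1, Hk1, Pfkfb3 and Pfkl, and Hk2 in 3.44%. Of all 23168 genes, 12.6% had reads in 50% of cells or more and 2.15% in over 90%, and of the 10 glycolysis genes 7 and 3 did. The summed level of the 10 was 29.9 ± 12.3 (SD over cells), with a lowest of 0.192, a median of 28.98 and a highest of 107.6, and Gapdh alone made up 36.8% of all these reads.

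**Figure D1:**
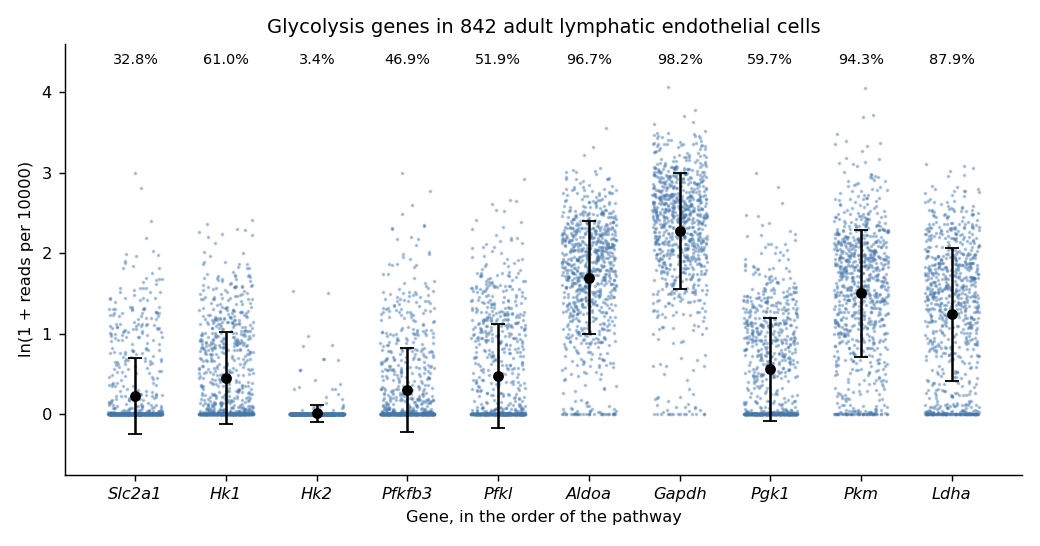
Deposited value, ln(1 + reads per 10000), of each gene in each cell (blue points, spread sideways at random), with mean and SD over cells in black and the share of cells with reads above each column. Gapdh, Aldoa, Pkm and Ldha had reads in nearly all cells, and Hk2 sat at 0 in all but 3.44%.

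The step of glucose uptake was represented by the transcript of Slc2a1 (chr4:119108711-119137983, plus strand, mm10), found in 32.8% of cells (95% exact interval 29.6 to 36.1%). Uptake itself was not measured. Its level was 0.482 ± 1.38 (SD over cells) and its highest value 19.1, with more than 50% of cells at 0. Most reads came from few cells: the 10% of cells with the highest values held 74.5% of the summed level. Slc2a3, which encodes the high-affinity transporter GLUT3, had reads in 1.78% of cells. Slc2a1 was thus found far more often than Slc2a3.

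Of the hexokinases, which phosphorylate glucose and so hold it in the cell, Hk1 (chr10:62268855-62379908, minus strand) was the transcript present. It had reads in 61.05% of cells (95% exact interval 57.7 to 64.4%) at 0.911 ± 1.49 (SD over cells), median 0.115 and highest value 10.1. Hk2 (chr6:82725025-82774454, minus strand), the isoform known to be induced by insulin, hypoxia and growth signals, had reads in 29 cells, 3.44% (2.32 to 4.91%), at 0.0237 ± 0.209, and its highest value was 3.62. Hk3 had no read in any cell, which allows up to 0.356% of cells with a read (3 cells of the total), a limit on reads and not on cells expressing the gene.

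Pfkfb3 (chr2:11471433-11554077, minus strand) had reads in 46.9% of cells (43.5 to 50.3%). Its level was 0.650 ± 1.62 (SD over cells) with 0 in most cells and 18.98 in the highest, and the 10% of cells with the highest values held 67.8% of it. Among 21455 genes ranked by standardized variance, which compares a gene's spread over cells with that of genes of the same mean, Pfkfb3 was at rank 110 (2.54), Pgk1 at 1621 (1.55) and Slc2a1 at 3609 (1.31). The other 7 genes of the set lay at rank 7132 or lower, so by this measure Pfkfb3 stood first of the 10. Total reads ranked with Pfkfb3 at a rho of 0.170, and the part of depth in its rank was not tested. By SD over mean of the level, which is not matched for mean, Hk2 (8.79) and Slc2a1 (2.85) lay above Pfkfb3 (2.50). The remaining members lay below it. Pfkfb3 was also the main member of its family. Pfkfb1, Pfkfb2 and Pfkfb4, whose products make the same regulator in other tissues, had reads in 4.28%, 8.91% and 6.06% of cells.

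Phosphofructokinase, the enzyme that the product of Pfkfb3 activates, was represented by the liver-type gene Pfkl (chr10:77986947-78010083, minus strand), found in 51.9% of cells at 1.09 ± 1.96 (SD over cells; median 0.0146, highest 17.6). The platelet-type gene Pfkp was found in 56.7% at 1.08 ± 1.87, whereas the muscle-type gene Pfkm was found in 8.19%. Per kb of exon the levels were 0.163 ± 0.293 for Pfkl, 0.0803 ± 0.139 for Pfkp and 0.0286 ± 0.137 for Pfkm.

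From aldolase onward each step had 1 leading transcript. Aldoa (chr7:126795234-126800751, minus strand), which splits the sugar, was at 5.75 ± 4.17 (SD over cells; lowest 0, median 5.01, highest 33.9), while Aldoc had no read in any cell, with the same limit as Hk3. Gapdh (chr6:125161715-125166467, minus strand), which makes the first NADH of the chain, was at 11.01 ± 7.12 (lowest 0, median 10.1, highest 57.3). Pgk1 (chrX:106187100-106203699, plus strand), the first ATP-yielding enzyme, was found in 59.7% of cells at 1.21 ± 1.90 (median 0.297, highest 18.9). Gapdh and Aldoa had reads in almost every cell, and Pgk1 had no read in many. The sequence copies described below limit how the counts of Gapdh and Pgk1 can be read.

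Pkm (chr9:59656368-59679375, plus strand), which makes pyruvate and whose splice forms are summed in a gene count, was at 5.02 ± 5.11 (SD over cells; median 3.91, highest 56.5), and its liver and red cell counterpart Pklr was found in 0.356% of cells. Ldha (chr7:46841475-46855627, plus strand), which turns pyruvate into lactate, was at 3.74 ± 3.69 (median 2.99, highest 21.4). Ldhb, the subunit that favours the reverse reaction, was found in 1.66% of cells. The lactate carriers Slc16a1 and Slc16a3 were found in 5.58% and 9.62%.

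Steps outside the 10 genes were also covered. Gpi1, the isomerase between hexokinase and phosphofructokinase, was found in 89.2% of cells, Tpi1 in 65.9%, Pgam1 in 53.9% and Eno1, an enolase, in 83.1%. Their tissue-specific counterparts Pgam2, Eno2 and Eno3 lay between 1.31% and 4.04%. Of 21 further glycolysis genes in the matrix, 19 had reads and those found in at least 50% were Gpi1, Pfkp, Tpi1, Pgam1 and Eno1.

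Levels of different genes can be compared only per length, here as reads per 10000 and per kb of all annotated exons (mean ± SD over cells). On this scale Gapdh was first at 2.66 ± 1.72 and Aldoa second at 1.97 ± 1.43, with Gapdh above Aldoa in 62.2% of cells. Ldha (1.13 ± 1.12) and Pkm (1.005 ± 1.02) followed, and Ldha was above Pkm in 52.1% of cells and below it in 46.6%. Of the 10, Pgk1 came next at 0.540 ± 0.845. These neighbours in the order differed by less than their spread over cells.

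Pfkl (0.163 ± 0.293), Slc2a1 (0.138 ± 0.392), Hk1 (0.107 ± 0.174) and Pfkfb3 (0.0860 ± 0.215) lay close together on the per-kb scale, again within the spread over cells, and Hk2 was last at 0.00398 ± 0.0349. Against the order of the means, Slc2a1 was above Hk1 in 25.4% of cells and below it in 46.3%. Pfkl was above Slc2a1 in 41.8% and below it in 23.8%, and Hk1 above Pfkfb3 in 45.6% and below it in 31.8%. The order rests on the length used, here and among the later enzymes. With the longest transcript in place of all exons, Aldoa (3.71) came above Gapdh (3.35), and Pkm (2.066) and Ldha (2.062) were nearly equal. Pfkl then came to 0.291, Hk1 to 0.213, Slc2a1 to 0.148 and Pfkfb3 to 0.135, so Hk1 moved above Slc2a1. Read from top to bottom of the pathway, the per-kb level was lowest at uptake and commitment and highest at Aldoa and Gapdh.

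Shares of cells moved with depth, and so did some levels. In the tertile of cells with fewest reads, Pfkfb3 was found in 33.1% and Hk1 in 49.1%, and in the tertile with most reads in 59.4% and 72.6%. The level of Pfkfb3 went from 0.554 to 0.777 from the shallowest to the deepest tertile and that of Slc2a1 from 0.570 to 0.319. With each cell thinned to 20000 reads (93.9% of cells, 51 shallower cells left out), Slc2a1 was found in 21.2% of cells, Pfkfb3 in 31.1%, Pfkl in 39.8%, Hk1 in 41.5%, Pgk1 in 48.9% and Gapdh in 96.7%. The median cell had reads of 6 of the 10 genes, and 2 cells had reads of all 10.

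Gapdh is the member whose count is least certain, because the mouse genome holds many processed copies of its mRNA. Aligned to all annotated transcripts (GENCODE M21), the Gapdh transcript matched about 330 other genes over at least 300 bases at 80% identity or more. Of these 96.9% are annotated as pseudogenes, and 32.8% of the pseudogenes are in the matrix. Of windows of 75 bases along the transcript, 80.3% occurred letter for letter in transcripts of about 120 other genes. A read from such a window could not be placed by its sequence alone. The stretch below is the coding window with the most exact copies, shown because it is what an aligner would have had to place.

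Gapdh coding sequence (chr6:125162873-125162947, minus strand, mm10, within an exon): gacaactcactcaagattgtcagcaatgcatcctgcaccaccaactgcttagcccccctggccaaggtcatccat

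These 75 bases occurred unchanged in transcripts of 49 other genes, 42 of them in the matrix. Reads were assigned to Gapdh pseudogenes in 71.5% of cells, at a mean of 0.453 ± 0.960 (SD over cells), which is 4.12% of the mean level of Gapdh. The 23 pseudogenes in the matrix with at least 99% identity held 0.871% of the Gapdh level. The 38 with 95 to 99% identity held 0.532%, and the 43 under 95%, which differ most from Gapdh, held 2.71%. Single copies were found in up to 27.3% of cells, in the case of Gm2606 (chr15:12574889-12575890, 99.9% identical over 70.6% of the Gapdh transcript), and Gm12033 (chr11:20335012-20336013, 99.9%) was found in 12.7%. Peli2, a protein-coding gene whose annotated transcript aligns to Gapdh at 90.8% identity, had reads in 33.8%, and which of these came from Gapdh cannot be told apart.

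In 10 cells more reads were assigned to the pseudogenes than to Gapdh. The pseudogene sum ranked with Gapdh over cells at a Spearman's rho of 0.202 and with Actb, an unrelated abundant gene, at -0.0034, and with total reads at 0.189, over the same cells, which share depth and scaling. With the pseudogene reads added, the level of Gapdh went from 11.01 to 11.5, and its highest correlations with other members, 0.143 with Pgk1 and 0.142 with Pfkl, went to 0.141 and 0.132. How reads with several possible places were treated in the counting is not given in the sources used here, so reads lost to such windows cannot be counted.

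**Figure D2:**
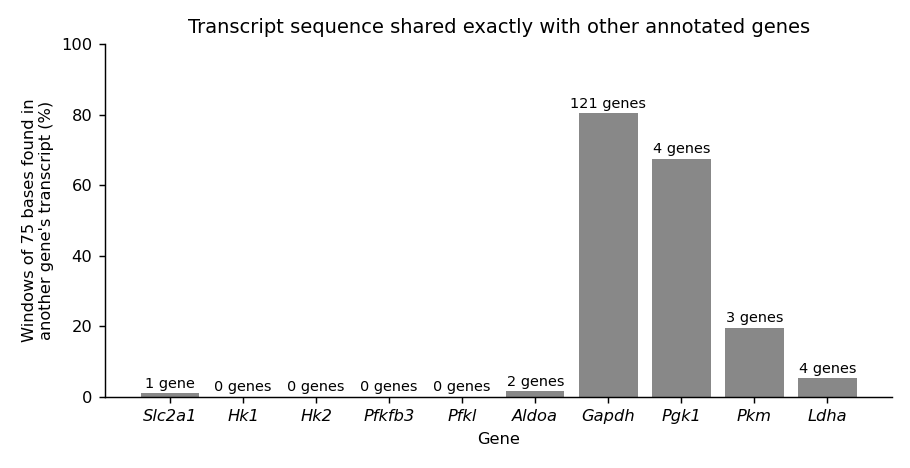
Share of all 75-base windows of each gene's transcript that also occur exactly in an annotated transcript of another gene (bars, percent), with the number of such genes above. Gapdh (80.3%) and Pgk1 (67.5%) stand out, and Hk1, Hk2, Pfkfb3 and Pfkl have none.

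Pgk1 had the second largest share of windows with an exact copy, 67.5%, from 4 genes. Its processed copy Pgk1-rs7 (chr12:10898986-10900240) was identical over 68.8% of the Pgk1 transcript and had reads in 4.28% of cells. As for Gapdh, any reads of Pgk1 lost to windows with an exact copy cannot be counted. Their part in the share of cells with Pgk1 (59.7%) and in its level was not tested. Pkm followed with 19.6% and its copy Gm6560 (98.4% identical), with reads in 14.7% of cells. Ldha had 5.38%, Aldoa 1.53% and Slc2a1 0.973%. In Hk1, Hk2, Pfkfb3 and Pfkl no 75-base window occurred in another gene, so at this length the counts of Pfkfb3 carry no such doubt from annotated transcripts. With windows of 50 bases, 0.654% of those of Pfkfb3 and 0.0543% of those of Pfkl did, and none of Hk1 or Hk2. Exons of Slc2a1, Hk1, Aldoa and Gapdh overlap exons of a gene on the other strand by 0.859% to 2.99% of their length, and whether counting used strand is not given. Exons of Pkm overlap those of Gm49759, a gene on the same strand that is not in the matrix, by 15.3% of their length.

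Rank correlations between the 10 genes over cells were small, but a larger share of their pairs reached 0.1 than of all pairs of genes. For each of 45 pairs, Spearman's rho was computed on the deposited values over the cells, which share library preparation, a wide range of depth and values scaled to a fixed sum. The median was 0.0405, the lowest -0.0446 (Hk1 and Aldoa) and the highest 0.149 (Slc2a1 and Pfkfb3). A rho of at least 0.1 was reached by 8 pairs. Among all pairs of the 7264 genes with reads in 20% of cells or more the median was 0.0330 and 5.04% reached 0.1, and among the 36 pairs of the set without Hk2, which that filter removes, the median was 0.0536 and 22.2% did. These coefficients are small, and in counts this sparse a small value does not show that genes are unrelated.

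Gapdh was in 4 of the 8 pairs: with Pgk1 (0.143), Pfkl (0.142), Hk1 (0.124) and Pkm (0.123). Ldha was in 3, with Pkm (0.122), Pgk1 (0.108) and Aldoa (0.101), and the remaining pair was Slc2a1 and Pfkfb3. Among pairs of consecutive steps, Gapdh and Pgk1 (0.143) and Pkm and Ldha (0.122) were high, Aldoa and Gapdh were at 0.0903, Slc2a1 and Hk1 at 0.0546, and Pfkl and Aldoa at -0.0089. Eno1, outside the set, reached 0.121 with Aldoa and 0.119 with Gapdh.

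**Figure D3:**
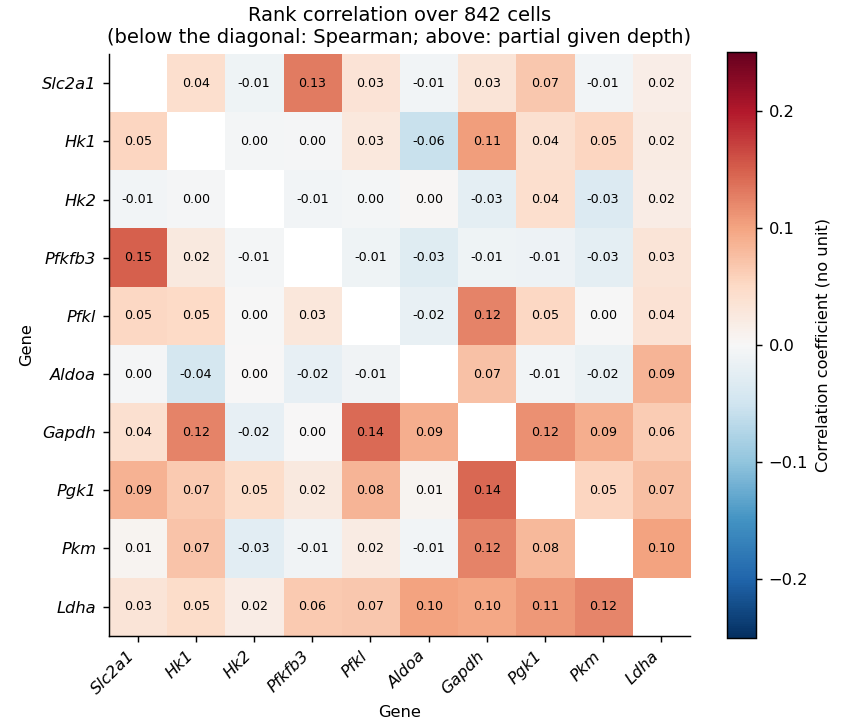
Rank correlation of each pair of genes over cells, as Spearman's rho below the diagonal and as partial rank correlation given total reads, genes per cell and mitochondrial share above it (colour and printed value, no unit). The largest value is 0.149 for Slc2a1 and Pfkfb3, and most cells of the grid are near 0.

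With total reads, genes per cell and mitochondrial share held constant, the median of the 45 pairs fell to 0.0202. Then 5 pairs kept at least 0.1, which is 13.9% of the 36 pairs without Hk2, against 0.959% of all pairs of genes. On thinned reads 7 pairs reached 0.1, which is 19.4% of the 36, against 1.47% of all pairs. The highest pair then was Hk1 and Gapdh at 0.135. In these settings too, the pairs of all genes were not matched for share of cells with reads. Over all cells, deeper cells or shallower cells, the highest coefficient of any pair was 0.220.

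Pfkfb3 had no rho above 0.0648 with any member other than Slc2a1. Its values were 0.0648 with Ldha, 0.0283 with Pfkl, 0.0248 with Hk1, 0.0245 with Pgk1, 0.0018 with Gapdh, -0.0088 with Pkm and -0.0212 with Aldoa, with a median of 0.0245 over the 9. The median of all 7263 other genes with Pfkfb3 was 0.0380. On thinned reads the medians were 0.0128 for the 9 members and 0.0084 for all genes, so the order of these 2 medians turned with depth. Against the summed reads of Aldoa, Gapdh, Pgk1, Pkm and Ldha on thinned reads, Pfkfb3 ranked 4312 of 5087 genes (-0.0316).

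The pair of Slc2a1, the entry of glucose, and Pfkfb3, the activator of its commitment, stood 95th of 7263 genes by rho with Pfkfb3 on the deposited values. At 20000 reads per cell, Slc2a1 was found in 26.02% of cells with Pfkfb3 reads (95% exact interval 20.6 to 31.97%) and in 19.1% of cells without (15.9 to 22.6%). These intervals overlap. Their rank correlation was 0.220 in cells above the median of total reads and 0.0673 in cells at or below it, 0.0828 on thinned reads and 0.0843 as Pearson's r. On thinned reads Slc2a1 was among the first 5.38% of 5091 genes.

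The upstream windows of the pair are shown because its rho was the highest of the 45 pairs on the deposited values. It was not the highest on thinned reads or as Pearson's r. Each is the 250 bases before an annotated start site (RefSeq, GRCm38.p6), with the letters ACGTG, the core of the sequence bound by hypoxia-inducible factors, in capitals on either strand. Pfkfb3 has 2 annotated start regions.

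Slc2a1, chr4:119108495-119108744, plus strand: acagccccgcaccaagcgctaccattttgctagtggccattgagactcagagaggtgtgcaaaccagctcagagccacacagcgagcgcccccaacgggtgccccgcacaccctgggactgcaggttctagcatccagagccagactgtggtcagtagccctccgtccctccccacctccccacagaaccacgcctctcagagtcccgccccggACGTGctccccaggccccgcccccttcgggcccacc
Pfkfb3, chr2:11502091-11502340, minus strand: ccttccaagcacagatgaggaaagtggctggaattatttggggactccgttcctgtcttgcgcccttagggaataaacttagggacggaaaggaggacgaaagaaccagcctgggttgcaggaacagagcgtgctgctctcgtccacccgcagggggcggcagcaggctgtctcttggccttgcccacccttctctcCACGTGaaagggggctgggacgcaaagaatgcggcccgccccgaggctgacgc
Pfkfb3, chr2:11553930-11554179, minus strand: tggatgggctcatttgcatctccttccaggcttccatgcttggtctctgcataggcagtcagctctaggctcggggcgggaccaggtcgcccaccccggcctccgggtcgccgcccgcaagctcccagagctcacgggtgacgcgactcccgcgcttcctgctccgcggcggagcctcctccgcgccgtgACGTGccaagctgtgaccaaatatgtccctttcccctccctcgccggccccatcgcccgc

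Counted back from the start site, the match begins at position -36 in Slc2a1, and in Pfkfb3 at -60 in one region and at -53 in the other, where CACGTG holds ACGTG on both strands. Over windows of 300 bases that add 50 bases after the start, 11 of the 16 windows of the 10 genes hold ACGTG on either strand, in 9 genes, Pfkl being the one without, and 2 of the Aldoa windows overlap and share their match. Of all 32851 promoter windows 19.6% hold it. The other hypoxia core, GCGTG, is in 7 of the 16 windows and 32.4% of all, and the GC box GGGCGG in 10 of the 16 and 35.7% of all. The letters TTCNNNGAA, a site read by STAT factors, were in none of the 16 windows and in 8.30% of all, and TGANTCA, an AP-1 site, was in 1 of the 16 and in 7.81% of all. A match describes the letters only and was not measured as binding.

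The genes that ranked most closely with Pfkfb3 were not glycolysis genes but signalling and early response genes. On thinned reads, among 5091 genes with reads in 20% of the thinned cells or more, the first were Socs3 (0.230), a feedback inhibitor of cytokine signalling, and Stat3 (0.209), the transcription factor that induces it. Sbno2, a transcriptional coregulator, was at 0.209, Fosl2, an AP-1 subunit, at 0.199 and Irf1, an interferon response factor, at 0.195. Sertad1, Egr1, Junb, Trib1 and Jun followed between 0.187 and 0.193. The median over all these genes was 0.0093.

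These genes are also known to rise while tissue is taken apart into single cells. Of the 10, 6 (Socs3, Irf1, Egr1, Junb, Trib1 and Jun) are in the list of 66 dissociation genes used here, as are 1.12% of all genes that passed the filter, and Pfkfb3 is not in the list. The score of that list, which had reads for 66 of 66 genes and a summed level between 31.9 and 1695 per cell, ranked with Pfkfb3 at a rho of 0.228 over all cells, with Slc2a1 at 0.124, with Pfkl at 0.111 and with the other members between -0.0697 and 0.0829. Total reads ranked with Pfkfb3 at 0.170 and genes per cell at 0.217. The part that tissue handling had in the level of Pfkfb3 was not tested.

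By tertile of the dissociation score, on thinned reads, Pfkfb3 was found in 19.01% of cells in the lowest (14.5 to 24.3%), 32.6% in the middle (26.96 to 38.6%) and 41.7% in the highest (35.7 to 47.9%), at levels of 0.238 ± 0.634, 0.725 ± 1.65 and 0.947 ± 2.03. Socs3 and Stat3 were chosen for their rank correlation with Pfkfb3 on these reads, so their tertiles are shown as a description only. By tertile of Socs3 reads it was found in 20.2%, 30.3% and 42.8%, and by tertile of Stat3 reads in 20.2%, 31.1% and 42.05%. Ldha was found in 68.8%, 84.1% and 79.9% across the tertiles of the dissociation score, Slc2a1 in 16.3%, 25% and 22.3%, and Gapdh in 93.9%, 98.5% and 97.7%. Across the tertiles of Socs3, Ldha was found in 69.2%, 78.03% and 85.6% and Slc2a1 in 17.5%, 20.5% and 25.8%, so higher shares in successive tertiles were not particular to Pfkfb3. Across tertiles of total reads before thinning Pfkfb3 was found in 29.7%, 29.9% and 33.7%.

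**Figure D4:**
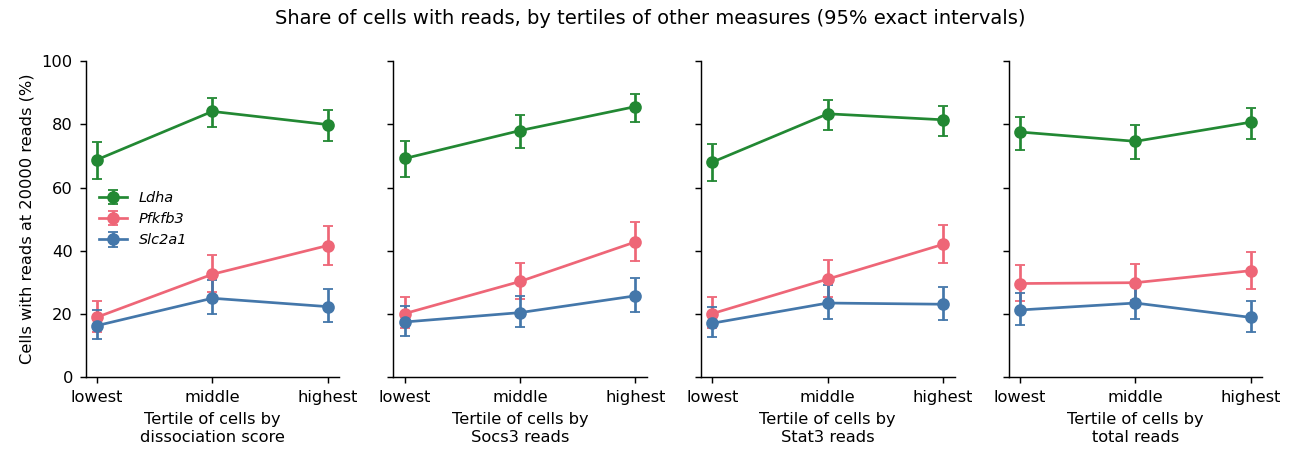
Share of cells with reads of Ldha, Pfkfb3 and Slc2a1 at 20000 reads per cell (percent, 95% exact intervals for counting error) in the lowest, middle and highest tertile of cells by dissociation score, Socs3 reads, Stat3 reads and total reads. Pfkfb3 goes from 19.01% to 41.7% across the dissociation score and from 29.7% to 33.7% across total reads.

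With depth and quality held constant the coefficients on thinned reads stayed between 0.172 (Junb) and 0.218 (Socs3). With the dissociation score held constant as well, on the deposited values, Stat3 kept 0.148 and Trib1 0.121, while Socs3 came to 0.0783, Junb to -0.0301, Egr1 to -0.0096 and Jun to 0.0094. The score contains 6 of the 10 genes, so their coefficients had to fall. Of the genes outside it, Sbno2 came from 0.193 to 0.0852, Fosl2 from 0.208 to 0.0893 and Sertad1 from 0.208 to 0.0522. Slc2a1, which is not in the score, was then at 0.107 with Pfkfb3 and ranked 16 among the 7263 genes.

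Genes ranking with the summed reads of Aldoa, Gapdh, Pgk1, Pkm and Ldha were of another kind. Sparc, a matrix-binding glycoprotein, was first at 0.238, then Atox1, a copper chaperone, at 0.215, Olfml2a, a matrix protein, at 0.213, Eef1b2, a translation elongation factor, at 0.211, and Actb, cytoplasmic actin, at 0.210. None of these 5 is in the dissociation list, and the dissociation score ranked with the sum at -0.0053 over all cells. Sparc was also leading gene 5 of cluster 2, described below, in which Pkm and Gapdh were highest. The part of that cluster in the rank of Sparc with the sum was not tested. Eno1 was the nearest glycolysis gene outside the sum at 0.129, among the first 2.48% of 5087 genes.

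Levels across cell states were described in 5 clusters, built without any glycolysis gene among the variable genes so that these genes could not define them. Cluster 1 (33.97% of cells) was led by Igfbp5, Clca3a1 and Apoe, cluster 2 (29.8%) by Aqp1, Gm525 and Stab2, cluster 3 (25.06%) by Tgfbi, Slco2b1 and C3, cluster 4 (49 cells) by Tppp3, Cyp4b1 and Fndc1, and cluster 5 (45 cells) by Slc41a1, Gdf15 and Plat. Differences between them are given with no test, since the clusters are parts of 1 sample. Median reads per cell ran from 293604 (cluster 5) to 552080 (cluster 4), and median dissociation score from 0.450 (cluster 4) to 0.622 (cluster 1).

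Pfkfb3 and Slc2a1 were both highest in cluster 1. Pfkfb3 was at 0.890 ± 1.73 (SD over cells) there and at 0.690 ± 1.94 in cluster 2. Clusters 3 and 4 had 0.407 ± 1.24 and 0.467 ± 0.884, and cluster 5 was lowest at 0.240 ± 0.662, a ratio of 3.70 between highest and lowest. On thinned reads it was found in 39.2% of cells of cluster 1 and 18.6% of cluster 5. Slc2a1 was at 0.739 ± 1.59 in cluster 1 and between 0.316 and 0.556 in the others. Cluster 1 also had the highest dissociation score. It had the most cells with reads of at least 2 genes of another cell type's list (17.1%, against 0 to 9.005% in the others). Over all clusters, 58 cells met this for the blood endothelial list, which includes the widely found Plvap, 17 for the immune and 10 for the fibroblast list. The part of the score and of these cells in the levels was not tested. From cluster 1 to cluster 5 the median score was 0.622, 0.602, 0.536, 0.450 and 0.602.

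Pkm was highest in cluster 2, at 7.72 ± 7.42 (SD over cells), against 2.43 ± 2.16 in cluster 4, a ratio of 3.17. With 10 principal components the ratio was 4.85. Gapdh was highest in the same cluster, at 12.99 ± 8.35, and lowest in cluster 4, at 7.90 ± 5.24. Aldoa went the other way, with its lowest level in cluster 2 (4.71 ± 3.72) and its highest in cluster 5 (8.28 ± 5.85), where Ldha (5.73 ± 5.44) and Pfkl (1.36 ± 2.94) were highest too. With 20 principal components Pfkl was highest in cluster 1. Pgk1 was highest in cluster 4 at 1.77 ± 2.21. The summed level of the 10 was 33.2 ± 14.2 in cluster 2 and 23.1 ± 9.17 in cluster 4.

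**Figure D5:**
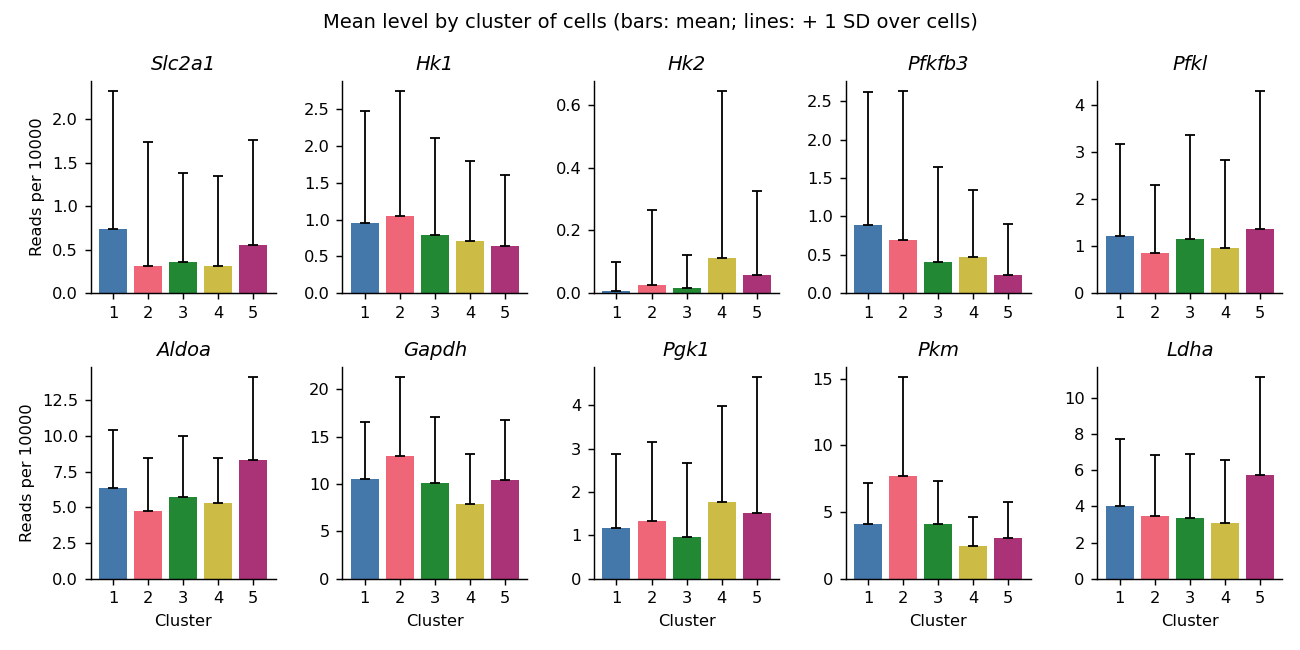
Mean reads per 10000 of each gene in 5 clusters of cells (bars, from 0), with 1 SD over cells drawn upward. Pkm and Gapdh are highest in cluster 2, Pfkfb3 and Slc2a1 in cluster 1, and Aldoa and Ldha in cluster 5, and each SD is large beside the differences.

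All 9 genes found in at least 20% of cells differed at least 1.5-fold between their highest and lowest cluster, as did 74.1% of all 7264 such genes. With resolution 0.8 or 20 principal components 8 of the 9 did. The median ratio of all these genes was 1.82. Pfkfb3 lay at percentile 89.7 of them, Pkm at 85.5 and Slc2a1 at 71.8, and Pfkl, Hk1 and Gapdh between 33.8 and 38.3. Hk2, too rare for the filter, was found in 12.2% of the cells of cluster 4 (95% exact interval 4.63 to 24.8%) and 1.75% of cluster 1 (0.57 to 4.03%). On thinned reads it was found in 4.65% of clusters 4 and 5 each and in 1.12% of cluster 1, and cluster 4 had the most reads per cell.

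The rho of Pfkfb3 and Slc2a1 within clusters was 0.0666 and 0.0903 in clusters 1 and 3, and lay between 0.226 and 0.234 in the remaining clusters. Gapdh and Pgk1 lay between 0.0320 and 0.284. Gapdh and Pfkl were above 0.15 in clusters 1 to 3 and at -0.246 and -0.114 in clusters 4 and 5, which hold 49 and 45 cells.

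Genes of neighbouring pathways were found as well. The 8 genes of pyruvate entry into mitochondria summed to 3.28 ± 2.67 (SD over cells), with Pdhb, a pyruvate dehydrogenase subunit, highest in share (56.2% of cells) and the dehydrogenase kinase Pdk4 lowest (1.54%). The 8 genes of side branches summed to 3.78 ± 3.06, from Pgm1, of glycogen metabolism, in 72.6% of cells to Gys1, glycogen synthase, in 10.6%. All 12 genes of fatty acid oxidation, a known fuel route of LECs, had reads and summed to 7.005 ± 4.23, from Hadha, which oxidizes long chains, in 61.4% to Acads, for short chains, in 11.05%. Cpt1a, which encodes its rate-limiting enzyme, was found in 31.7%. The sum of fatty acid oxidation genes ranked with the sum of the 10 glycolysis genes at a rho of 0.0431.

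Of 18 other genes of the hypoxia response, all had reads and 13 were found in at least 20% of cells. Ndrg1, a stress-responsive gene, was found in 99.05% and Car9, a carbonic anhydrase strongly induced by low oxygen, in 0.356%. Epas1, which encodes HIF-2alpha, had reads in 96.9% of cells and Hif1a in 48.9%. On thinned reads the nearest of the hypoxia list to Pfkfb3 was Ndrg1 at 0.0690, among the first 9.25% of 5091 genes, and Hif1a was at 0.0278. On the deposited values Egln3 (0.114) and Kdm3a (0.111), both oxygen-dependent oxygenases, ranked above Ndrg1 (0.0603). Over all cells the sum of the hypoxia list ranked with Pfkfb3 at 0.0196, with Slc2a1 at -0.0344 and with Ldha at -0.0186.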

How the data were processed

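Single LECs of pooled adult mice were read by Smart-seq3. Per the authors, alignment was to mm10 by STAR and gene counts came from featureCounts (Subread). They kept cells with at least 2000 genes and at most 10% mitochondrial reads, and deposited natural log values of 1 plus reads per 10000 (Seurat 4.1.0 per the labels). The study's methods name log2, but only the natural log gave sums of 10000 in every cell. Whole reads were recovered for 100% of values above 0 (within 0.01 reads). Strand, multi-mapping and annotation are not given in the sources used here. Total reads per cell lay between 7433 and 3524358, which limits how often a rare gene could be seen, and intervals (Clopper–Pearson, 95%) cover counting error only. Reads were counted, so copies of 1 molecule are not independent.

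The genes and lists were chosen with earlier results of these data known. The named genes are the 10 members, the isozymes of each step, the 10 genes of highest rho with Pfkfb3 and the 5 with the summed enzymes, the highest and lowest gene of each other list, the 3 leading genes of each cluster and near copies with reads. A few further genes (Cpt1a, Epas1, Hif1a, Egln3, Kdm3a, and Actb as a comparison) were named after their values were seen. All cells formed 1 group and no test was run. For depth, reads were thinned to 20000 per cell at random (seed 11). Clusters followed the study's steps in Seurat 5.3.0 (R 4.3.3) with 2000 variable genes less 3 glycolysis genes, 15 principal components and the smallest resolution giving 5 clusters. Total reads, mitochondrial share and the dissociation and ribosomal scores were regressed out. The dissociation score used 66 genes listed for this work, not the study's own list. No doublet caller was run.

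Near copies were aligned with BLAST+ 2.17.0 to GENCODE M21 transcripts (GRCm38, 96.1% of symbols matched), and exact windows were counted against annotated transcripts only. No genome or protein sequence was used here. The symbol Aldoa names 2 annotated genes, and the one with more transcripts was used. Statistics used SciPy 1.17.1 with NumPy 2.4.6 and pandas 2.3.3 (Python 3.11.15), figures matplotlib 3.10.9, and the steps were tested on simulated data. Alternatives changed depth, thresholds, scaling, the correlation measure, cells, clusters and window length.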

Additional observations from a re-analysis of the deposited data

How the results depend on the processing

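With the longest transcript as length, the per-kb levels of Aldoa (1.97 to 3.71) and Pkm (1.005 to 2.07) moved by more than 1 SD over cells. The other 8 did not, though Hk1 went from 0.107 to 0.213 and Ldha from 1.13 to 2.06. The summed level of the 10 genes, 29.9 in the main setting, lay between 29.6 and 30.5 in the alternatives of scaling, depth and cells. Gapdh went from 11.01 to 11.5 with pseudogene reads added. Each level kept within 1 SD over cells, which is a wide limit: for Slc2a1 (0.482 ± 1.38) the SD exceeds the mean. Thinning keeps mean levels by construction. Shares moved with depth by construction. Genes found in at least 50% of cells numbered 7, 4 on thinned reads and 4 with a value above 1 as the threshold. The median rho of the 45 pairs stayed between 0.0202 and 0.0498, and the median with Pfkfb3 between -0.0105 and 0.0422. A rho of at least 0.1 was reached by 8 pairs, 5 with depth and quality held constant, and 5 with the dissociation score held constant too, a setting chosen after seeing the data. The rho of Pfkfb3 and Slc2a1 was 0.149, 0.0843 as Pearson's r, 0.0828 on thinned reads, 0.220 in deeper cells, 0.0673 in shallower cells and 0.107 with the dissociation score held constant (the cause was not tested). The ratio of highest to lowest cluster of Pfkfb3 lay between 2.74 (20 principal components) and 4.87 (resolution 0.8, 8 clusters), and 8 or 9 of the 9 genes differed at least 1.5-fold, and that of Pkm was 4.85 with 10 principal components against 3.17. Windows of Gapdh with an exact copy elsewhere came to 82.5% at 50 bases, 78.05% at 100 and 74.04% at 150, against 80.3% at 75. No paired analysis was possible because all cells form 1 group. Cells are not replicates, so none of these ranges is an error of the condition.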
